A study of Sus scrofa with 9 samples.

Results

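PLET1 (placenta expressed transcript 1) is described here across esophageal submucosal glands (ESMG), the squamous tissue above them and spheroids grown from the glands, all from pigs. It is 1 gene of 12217 tested, read by 1 probe set, the only probe set in the series whose sole annotated symbol is PLET1. The gene was chosen by its measured values, as the gene with the largest rise in spheroids, so its difference between spheroids and tissue is given as a description and was not tested.

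PLET1 encodes a glycoprotein of the cell surface that is held on the outer face of the membrane by a glycosylphosphatidylinositol (GPI) anchor, a lipid tail added in the endoplasmic reticulum. In mice it marks progenitor cells of several epithelia: trophoblast progenitors of the early placenta, epithelial progenitors of the fetal thymus, and keratinocytes of the hair follicle between the bulge and the sebaceous gland. In pigs it was described in the trophoblast of the conceptus. ESMG are branched mucous and serous glands whose ducts cross the esophageal wall and open onto the squamous lining; their ducts have been studied as a source of cells for repair of that lining.

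Total RNA was read on a porcine whole-transcript array of Affymetrix (PorGene 1.0 ST), and each of the 3 groups has 3 arrays. ESMG and squamous tissue came from the same 3 control pigs, numbered 37, 39 and 40, and no strain, age or genotype is given for them in the sources used here. Spheroids were labelled pig 1, pig 2 and pig 3, and no source used here ties those pigs to pigs 37, 39 and 40. They grew in Matrigel of reduced growth factor content, in Advanced DMEM/F12 to which B27, N2, 10 mM HEPES were added, with recombinant human epidermal growth factor (EGF) at 50 ng/ml, and their RNA was isolated with a different Qiagen kit from that of the tissues. Culture, animal and kit therefore cannot be told apart in any difference between spheroids and tissue. Values are log2 RMA levels, on which a difference of 1 is a 2-fold difference, and the number of arrays limits their precision.

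PLET1 was near the bottom of the measured range in both tissues and near its top in spheroids. In ESMG its level was 3.79 in pig 37, 4.53 in pig 39 and 5.02 in pig 40. In squamous tissue it was 3.93, 4.19 and 3.92 in the same pigs. In spheroids it was 12.51 in pig 1, 11.78 in pig 2 and 12.19 in pig 3. The spheroid arrays did not overlap the tissue arrays, whereas the ESMG and squamous arrays did overlap each other. Group means (± SD, n = 3 each) were 12.16 ± 0.37 for spheroids, 4.45 ± 0.62 for ESMG and 4.01 ± 0.15 for squamous tissue.

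**Figure D1:**
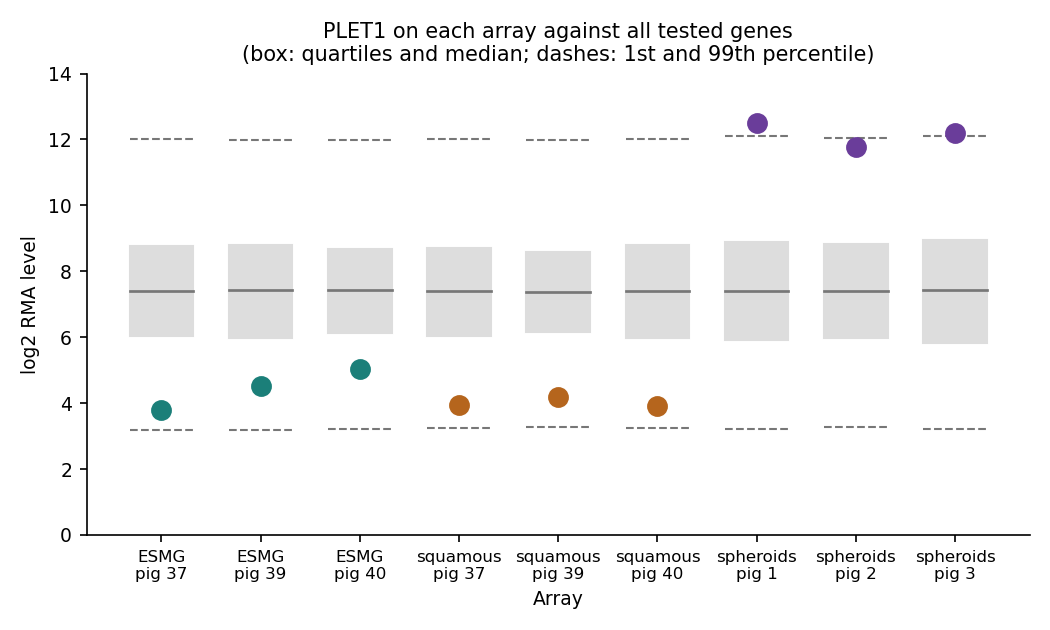
Log2 RMA level of PLET1 (point) on each of the 9 arrays, by group and pig, over the quartiles and median (grey box and line) and the 1st and 99th percentiles (dashes) of the 12217 tested genes on the same array. The 6 tissue points lie under the box, between 3.79 and 5.02, and the 3 spheroid points lie near the upper dashes, between 11.78 and 12.51.

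Set among all tested genes of the same array, PLET1 lay above only 3.30%, 8.27% and 11.5% of genes in the ESMG of pigs 37, 39 and 40, and above 3.86%, 4.77% and 4.04% in their squamous tissue. In spheroids it lay above 99.4%, 98.6% and 99.1% of genes, at ranks 68, 175 and 112 from the top. Probe sets differ in how strongly they bind, so such ranks place a signal on its array and not a number of transcripts. No detection call was used, so the tissue levels are low signals and not evidence of absence. The lower quartile of the tested genes was between 5.98 and 6.16 on the tissue arrays, and every tissue value of PLET1 lay under it.

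Spheroids exceeded ESMG by a log2 difference of 7.71 (SE 0.28), a 209-fold difference, and squamous tissue by 8.14 (SE 0.28), a 283-fold difference. These 2 differences share the spheroid arrays and are not independent of each other. PLET1 had the largest positive difference of all 12217 genes in both, and also of all 27558 probe sets, named or not. The medians over all genes were 0.09 and 0.03. The lowest spheroid array exceeded the highest tissue array by 6.75, again the largest such gap of any gene. Gaps as such were common, since 2812 genes, or 23.0% of those tested, had all 3 spheroid arrays above all 6 tissue arrays. Because PLET1 was chosen for this rise, these ranks describe the choice.

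The genes next to PLET1 in the ranking against ESMG were the EGF receptor ligand AREG at 6.06 (SE 0.32), the collagenase MMP13 at 5.84 (SE 0.25), the basal keratinocyte zinc finger protein BNC1 at 4.30 (SE 0.18) and the membrane mucin MUC4 at 4.15. Against squamous tissue they were MMP13 at 6.61, the GABA receptor subunit GABRP at 5.98, the neutrophil chemokine CXCL8 at 5.89 and AREG at 5.57. Both rankings left out locus identifiers and probe sets that were not named or had several symbols. Such probe sets lay among these genes, at 5.19 and 4.52 against ESMG and at 5.95 against squamous tissue. The step from PLET1 to the next gene was thus larger than 1 log2 unit in both rankings.

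**Figure D2:**
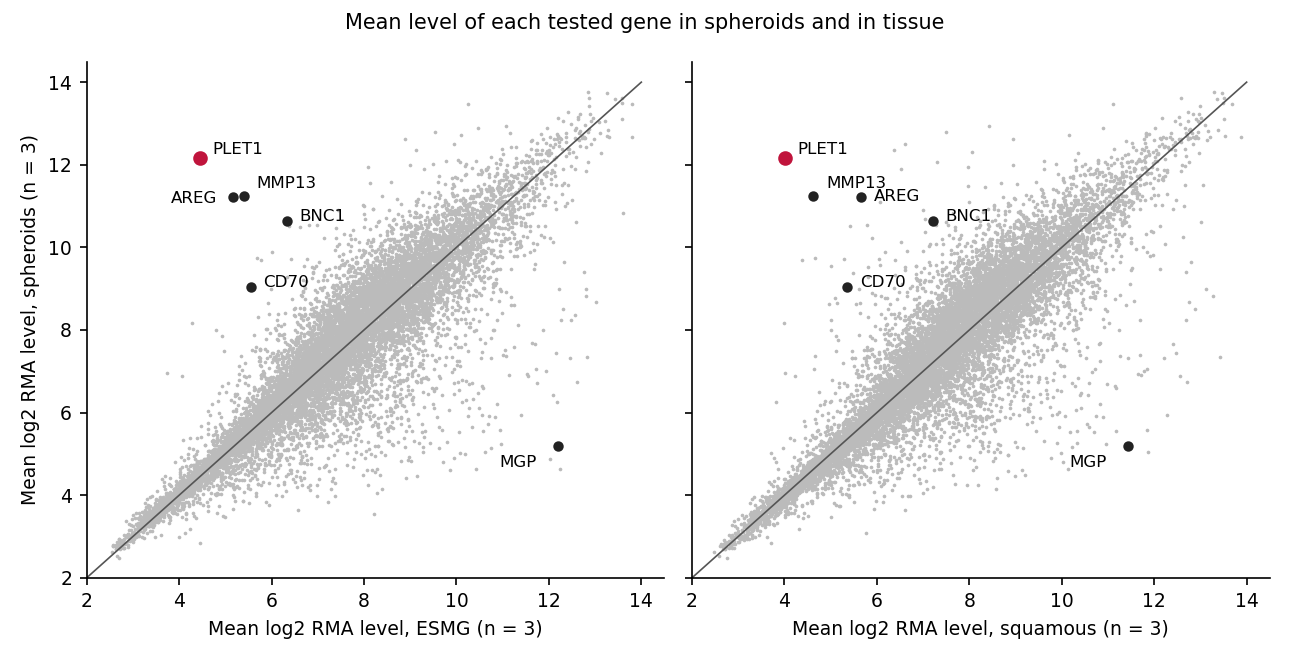
Mean log2 RMA level of each of the 12217 tested genes in spheroids (vertical axis) against ESMG (left) and squamous tissue (right), n = 3 arrays per group, with the line of equal levels. PLET1 (red) lies farthest above the line in both panels, with a spheroid mean of 12.16 against 4.45 and 4.01, and MGP, a matrix protein that inhibits calcification, is marked far below it.

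Genes that moved between the low and the high end of the range in this way were few. Only 3 genes lay under the lower quartile of the tested genes on all 6 tissue arrays and above the upper quartile on all 3 spheroid arrays: PLET1, MMP13 and CD70, a membrane ligand of the tumour necrosis factor family that was named after its values were seen. MMP13 was at 4.998, 5.48 and 5.73 in ESMG, at 4.06, 4.92 and 4.90 in squamous tissue and at 11.08, 11.49 and 11.15 in spheroids. CD70 was at 5.71, 5.29 and 5.64 in ESMG, at 5.44, 5.55 and 5.08 in squamous tissue and at 8.97, 9.17 and 8.98 in spheroids. In both genes the spheroid arrays stood clear of the tissue arrays by over 3 log2 units. The opposite move, from above the upper quartile in all tissue arrays to under the lower quartile in all spheroid arrays, was made by 17 genes, among them MGP, which fell by 7.02 against ESMG.

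Glands and squamous tissue were the comparison that the choice of PLET1 did not use, although it shares the ESMG arrays with the one that did. It asks whether PLET1 differs between the glands and the lining above them. PLET1 was 1.35-fold higher in ESMG (log2 difference 0.44, SE 0.28, limma adjusted p = 0.457), which did not pass the test, and the 95% interval of the log2 difference ran from -0.17 to 1.04. An ESMG level up to 2.06-fold that of squamous tissue is therefore within the error. In the same fit 2.65% of all tested genes were called higher in ESMG and 0.409% lower, a call being an adjusted p under 0.05 with a fold of at least 2.

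The pigs did not share a direction. ESMG was below squamous tissue by 0.14 in pig 37 (ESMG minus squamous -0.14) and above it by 0.35 in pig 39 and 1.10 in pig 40. Without the ESMG array of pig 37 the difference was 0.76 (adjusted p = 0.121), and without that of pig 40 it was 0.15 (adjusted p = 0.753). The spread of PLET1 within ESMG was wide, with an SD of 0.62 against a median of 0.19 over genes, larger than in 97.1% of genes. In squamous tissue its SD was 0.15, larger than in 34.5% of genes, and in spheroids 0.37, larger than in 91.9%. The highest tissue value of PLET1, in the ESMG of pig 40, was still 6.75 below the lowest spheroid value.

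The makeup of the samples differed between groups and was read from marker lists. Among all tested genes 7.99% were called higher in spheroids than in ESMG and 8.91% lower. Of 17 measured genes of fibroblasts and matrix 15 were lower in spheroids than in ESMG and none higher (median -3.83), with a mean level over the list of 10.72 to 11.02 in ESMG, 10.51 to 10.89 in squamous tissue and 7.18 to 7.71 in spheroids. Of 11 smooth muscle genes 8 were lower (mean level 9.65 to 10.36 in ESMG, 10.76 to 11.06 in squamous tissue and 7.25 to 7.48 in spheroids). Of 9 endothelial genes 7 were lower (8.25 to 8.36, 8.18 to 8.44 and 6.68 to 6.80). Of 11 leukocyte genes 7 were lower (7.76 to 9.02, 7.39 to 8.09 and 6.80 to 6.86). The pan-leukocyte gene PTPRC had a mean of 5.57 in spheroids, whereas the actin-bundling protein LCP1 was at 9.52 there and 9.51 in ESMG, and AIF1, a macrophage protein, differed by 0.82 without a call. Against squamous tissue 5 of the 11 were lower and 2 higher, LCP1 at 1.26 and AIF1 at 1.27. Of all tested genes 8.05% were lower there and 8.61% higher. Tissue samples thus carried signal of cells that spheroids had less of, and in such bulk samples fewer cells of a type and less RNA per cell cannot be told apart.

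Epithelial genes were the marker list with no member called lower in spheroids than in either tissue. Of 17 measured epithelial genes 3 were called higher in spheroids than in ESMG and 0 lower, against 7.99% and 8.91% of all tested genes. In a list of 17 genes, 0 lower is near that share. Their median difference was 0.51, and the mean level over the list was 10.39 to 10.53 in ESMG, 9.69 to 9.95 in squamous tissue and 10.94 to 11.15 in spheroids. The 3 were the membrane protease ST14 at 1.90, the simple keratin KRT19 at 1.87 and the tight junction protein CLDN4 at 1.67. Against squamous tissue 8 of the 17 were higher and 0 lower, against 8.61% and 8.05% of all tested genes. The epithelial adhesion molecule EPCAM was at 10.91, 11.00 and 10.11 in ESMG and at 10.17, 10.15 and 10.75 in spheroids, a log2 difference of -0.32 that did not pass the test (limma adjusted p = 0.333). KRT8, a keratin of simple epithelium, had a difference of 0.26 (adjusted p = 0.453) and KRT5, the keratin of basal squamous cells, a 1.87-fold higher mean (log2 difference 0.90, SE 0.18), which is less than the fold needed for a call. The part of sample makeup in the PLET1 difference was not tested.

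The labels were checked on the same kind of lists. Of 14 measured mucous and serous gland genes 10 were higher in ESMG than in squamous tissue, with mean levels of 10.22 to 11.07 and 6.88 to 8.56. Of all tested genes 2.65% were higher in ESMG and 0.409% lower. Spheroids were at 7.83 to 8.05, with 9 of the 14 lower than in ESMG and none higher. For spheroids against ESMG the shares of all tested genes were 8.91% lower and 7.99% higher. Upper-layer squamous genes were at 10.75 to 11.34 in ESMG and 11.55 to 11.67 in squamous tissue, and 1 of 10 was called between them, so the ESMG samples also carried squamous signal. In spheroids these genes were at 9.12 to 9.23, with 6 of 10 called lower than in ESMG and 1, CDSN, higher at 1.46.

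PLET1 is known as a progenitor marker, so the levels of other epithelial stem and progenitor markers were set beside it. Of 45 measured, 10 (22.2%) were higher in spheroids than in ESMG and 4 (8.89%) lower, against 7.99% and 8.91% of all tested genes, with a list median of 0.25. The largest rise was that of BNC1. NFATC1, a transcription factor of hair follicle stem cells in mice, was 4.06-fold higher (log2 difference 2.02, SE 0.26, limma adjusted p = 7.43e-05). It lay at 7.08, 7.01 and 6.08 in ESMG and at 8.62, 8.94 and 8.66 in spheroids, with no overlap.

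LRIG1, KIT and KRT15 had the 3 largest falls of the list, and PRDM1, at -1.91, was the other member called lower. Other follicle genes were picked out with their values in view. RUNX1 was called higher than in ESMG at 1.15, while SOX9 at 0.75, TCF7L1 at 0.89 and LHX2 at 0.25 were not called. SOX9 and TCF7L1 fell short only of the fold minimum, and both were called higher than in squamous tissue, at 2.31 and 1.15. LRIG1, a feedback inhibitor of EGF receptors that marks follicle stem cells above the bulge, was at 7.97, 8.43 and 7.38 in ESMG, at 6.84, 7.02 and 7.01 in squamous tissue and at 5.10, 5.29 and 5.54 in spheroids. It fell by 2.61 against ESMG (6.12-fold, SE 0.23, adjusted p = 5.23e-06), and no spheroid array reached a tissue array. KRT15, a keratin of the follicle bulge and of basal cells, fell by 2.89 (7.39-fold), with the spheroids of pig 2 at 8.10 and those of pigs 1 and 3 at 6.55 and 6.54. The receptor KIT, a marker of salivary duct progenitors in mice, fell by 2.95 (7.74-fold), from 9.21, 10.24 and 9.11 to 6.59, 6.70 and 6.41.

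Against squamous tissue 15 of the 45 markers (33.3%) were higher and 8 (17.8%) lower in spheroids, where 8.61% and 8.05% of all tested genes were higher and lower. The 2 largest rises there were the simple keratin KRT19 at 4.52 and OLFM4, a secreted marker of intestinal crypts, at 3.89. The 2 largest falls were KRT15 at -3.65 and the transcriptional repressor PRDM1 at -2.43. Between ESMG and squamous tissue 7 of the 45 (15.6%) were higher in ESMG and none lower, against 2.65% and 0.409% of all tested genes. OLFM4, at 2.82, and KRT19, at 2.65, led these, and the call on OLFM4 was lost when squamous tissue of pig 39 (adjusted p = 0.0595) or of pig 40 (0.0722) was left out. The count was 4 when squamous tissue of pig 39 was left out. PLET1 itself, with its tissue difference of 0.44, was not among the genes called there.

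**Figure D3:**
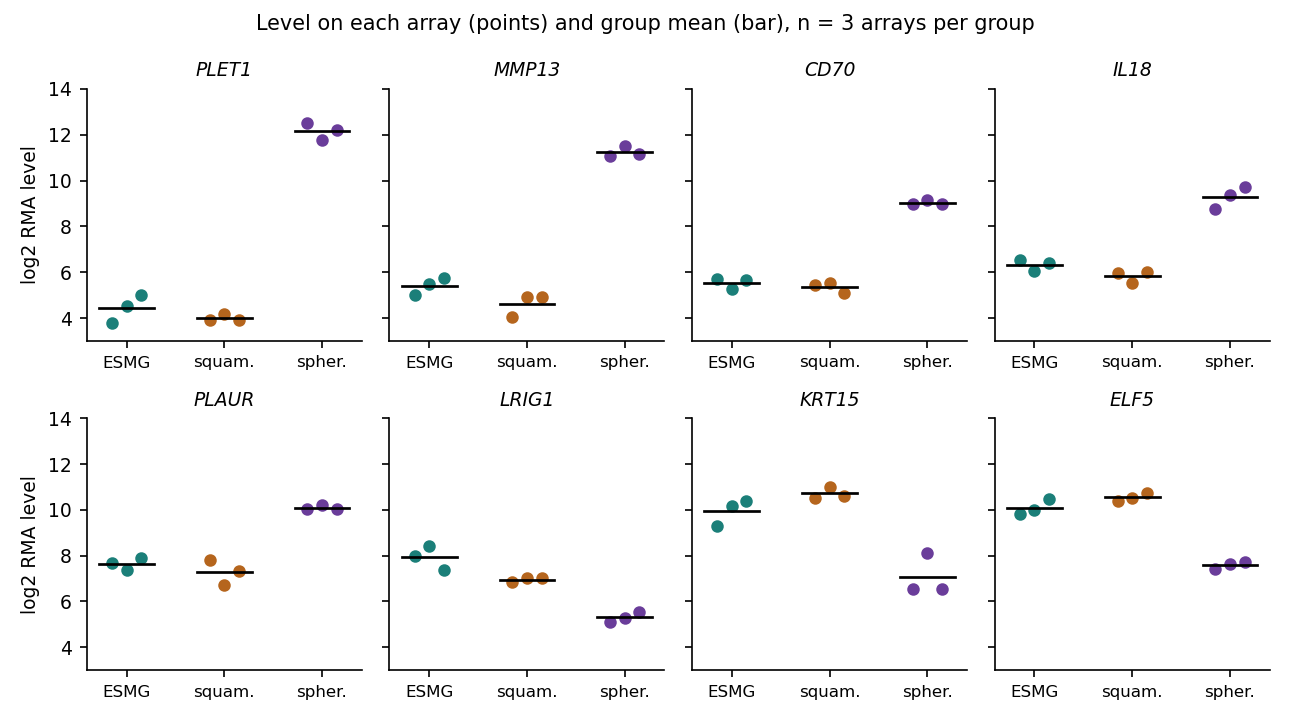
Log2 RMA level on each array (points, in the order of pig numbers) and group mean (bar) in ESMG, squamous tissue (squam.) and spheroids (spher.) for PLET1 and 7 other genes named in the text. PLET1, MMP13, CD70, IL18 and PLAUR are higher on all spheroid arrays, and LRIG1, KRT15 and ELF5 are lower on them.

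In mice PLET1 is also a gene of the trophoblast, and ELF5, an ETS transcription factor, belongs to the circuit that keeps mouse trophoblast stem cells. ELF5 was at 9.81, 9.98 and 10.49 in ESMG, at 10.40, 10.51 and 10.73 in squamous tissue and at 7.40, 7.63 and 7.73 in spheroids. It fell by 2.51 against ESMG (5.68-fold, SE 0.19, limma adjusted p = 1.46e-06), so ELF5 was lowest where PLET1 was highest. Of 29 measured trophoblast lineage genes 5 (17.2%) were higher in spheroids than in ESMG and 3 (10.3%) lower, against 7.99% and 8.91% of all tested genes, with a median of 0.26.

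The 2 largest rises of that list were PTGS2, the inducible cyclooxygenase, at 3.89 (14.8-fold), and SPP1, the secreted adhesion protein osteopontin, at 3.26 (9.57-fold). The other members called higher than in ESMG were the transcription factors PPARG at 1.66, TEAD4 at 1.18 and TFAP2C at 1.16. Besides ELF5, the members called lower were FGFR2, a fibroblast growth factor receptor, which fell by 1.20, and CITED2 at -1.07. CDX2, the caudal homeobox factor of mouse trophectoderm, had means of 6.11, 6.18 and 6.41 in ESMG, squamous tissue and spheroids, and HAND1, a factor of trophoblast giant cells in mice, had means of 3.31, 3.34 and 3.51, with neither called in any comparison. CDX2 and HAND1 were picked out with their values in view. Against squamous tissue 6 (20.7%) were higher in spheroids, led by SPP1 at 5.30, and 3 (10.3%) lower. Of all tested genes 8.61% were higher there and 8.05% lower. Between ESMG and squamous tissue 3 (10.3%) were higher in ESMG and none lower, against 2.65% and 0.409% of all tested genes. The 3 were SPP1 and the keratins KRT18 and KRT8, and both keratins are also on the epithelial marker list.

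PLET1 is carried by the GPI anchor, so genes that build and attach the anchor were set beside it. Of 24 measured, 3 (12.5%) were higher in spheroids than in ESMG and 1 (4.17%) lower, near the 7.99% and 8.91% of all tested genes, with a median of 0.31 against 0.09 over all genes. PIGL, which removes an acetyl group early in anchor synthesis, was at 7.01, 6.78 and 6.73 in ESMG and at 8.09, 7.76 and 8.26 in spheroids, a log2 difference of 1.20 (SE 0.17). DPM2, a regulatory subunit of the mannose donor synthase, differed by 1.14 (SE 0.21). CWH43, which remodels the lipid of the anchor, was lower by 1.02 (log2 difference -1.02).

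The calls on DPM2 and CWH43 rested on a difference close to the 2-fold minimum. DPM2 was at 0.95 without the spheroids of pig 2. CWH43 was at -0.83 without the spheroids of pig 2 and at -0.82 without the ESMG array of pig 40, and the count of called anchor genes went from 4 to 1 without the spheroids of pig 2. Against squamous tissue 4 anchor genes (16.7%) were higher in spheroids and 2 (8.33%) lower, against 8.61% and 8.05% of all tested genes. DPM2 at 1.43 and DPM3, another subunit of the same enzyme, at 1.34 led the rises. The lower ones were CWH43 at -2.26 and the mannosyltransferase PIGZ at -1.01. PIGZ was at -0.88 when squamous tissue of pig 39 was left out and at -0.93 when spheroids of pig 2 were, both short of a call. Between ESMG and squamous tissue 1 was higher, ARV1, which acts in lipid transport and anchor synthesis, at 1.06, and 1 lower, CWH43 at -1.24. Of all tested genes 2.65% were higher in ESMG and 0.409% lower. ARV1 fell to 0.95 and 0.97, under the minimum, without the ESMG arrays of pigs 37 and 39.

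Other proteins held by a GPI anchor were called in both directions. Of 47 measured, 5 (10.6%) were higher in spheroids than in ESMG and 9 (19.1%) lower, against 7.99% and 8.91% of all tested genes, with a median of 0.01 that ranged from -0.04 to 0.18 over the settings run. PLAUR, the urokinase receptor, was at 7.67, 7.39 and 7.89 in ESMG, at 7.79, 6.71 and 7.34 in squamous tissue and at 10.05, 10.20 and 10.02 in spheroids. It was 5.43-fold higher than in ESMG (log2 difference 2.44, SE 0.24, limma adjusted p = 1.06e-05). BST1, a surface enzyme that makes cyclic ADP-ribose, was at 6.74, 7.32 and 6.59 in ESMG and at 9.27, 9.43 and 9.90 in spheroids (2.65, 6.26-fold). Both stood clear of all tissue arrays, yet by differences far under that of PLET1.

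NT5E, the ecto-enzyme CD73 that makes adenosine, fell by 3.97 (15.7-fold), from 8.44, 9.09 and 8.87 in ESMG to 4.98, 4.86 and 4.65 in spheroids. RECK, an inhibitor of matrix metalloproteinases, fell by 2.99 (7.93-fold). Fibroblasts and endothelium can carry both, and markers of those cells were also lower in spheroids, as given above. The part of sample makeup in the falls of NT5E and RECK was not tested. Against squamous tissue 4 (8.51%) of the GPI-anchored genes were higher and 7 (14.9%) lower, against 8.61% and 8.05% of all tested genes. The higher share was thus near that of all genes. BST1 at 2.92 and PLAUR at 2.81 had the largest rises, and NT5E at -3.68 and RECK at -3.48 the largest falls. Between ESMG and squamous tissue none was higher and 1 lower, the ephrin EFNA3 at -1.04, against 2.65% and 0.409% of all tested genes. The EFNA3 call did not survive leaving out ESMG of pig 37, ESMG of pig 39, or squamous tissue of any pig. The limma adjusted p was then between 0.0533 and 0.0823. The count of called members was 4 when ESMG of pig 40 was left out.

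Genes of the wound edge and of migrating epithelium were the list with most members higher. PLET1 promotes migration of wounded keratinocytes in mice, which is why the list was set beside it. Of 31 measured, 21 (67.7%) were higher in spheroids than in ESMG and 2 (6.45%) lower, against 7.99% and 8.91% of all tested genes. The list median was 1.51 against 0.09 over all genes. AREG and MMP13 led the rises. AREG was at 4.94, 4.67 and 5.88 in ESMG, at 5.78, 5.08 and 6.12 in squamous tissue and at 11.54, 11.03 and 11.11 in spheroids. Besides them, and picked out after their values were seen, the urokinase PLAU had a difference of 3.86, the stromelysin MMP3 3.89, the EGF receptor ligand EREG 3.09, the laminin receptor subunit ITGA3 3.05 and the laminin chain LAMB3 2.63.

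The 2 lower members were fibronectin (FN1), which fell by 2.21, and its receptor subunit ITGA5, which had a difference of -1.24. FN1 is also made by fibroblasts, whose markers were also lower in spheroids. The part of sample makeup in the differences of this list, higher or lower, was not tested. The call on ITGA5 failed when ESMG of pig 37 (-1.04) or pig 40 (-0.93), or spheroids of pig 2 (-1.16) or pig 3 (-1.20), were left out. Against squamous tissue 19 (61.3%) were higher, led by MMP13 and AREG, and 2 (6.45%) lower, FN1 at -2.66 and ITGA5 at -2.51. Of all tested genes 8.61% were higher there and 8.05% lower. Between ESMG and squamous tissue only CLU, a secreted chaperone, was called, at 2.46. Of all tested genes 2.65% were higher in ESMG and 0.409% lower. The count of called wound-edge genes between the tissues was 4 when ESMG of pig 40 was left out. The list was drawn up with AREG, MMP13 and PLAU already known to be high in spheroids, so it is no independent evidence of a direction.

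**Figure D4:**
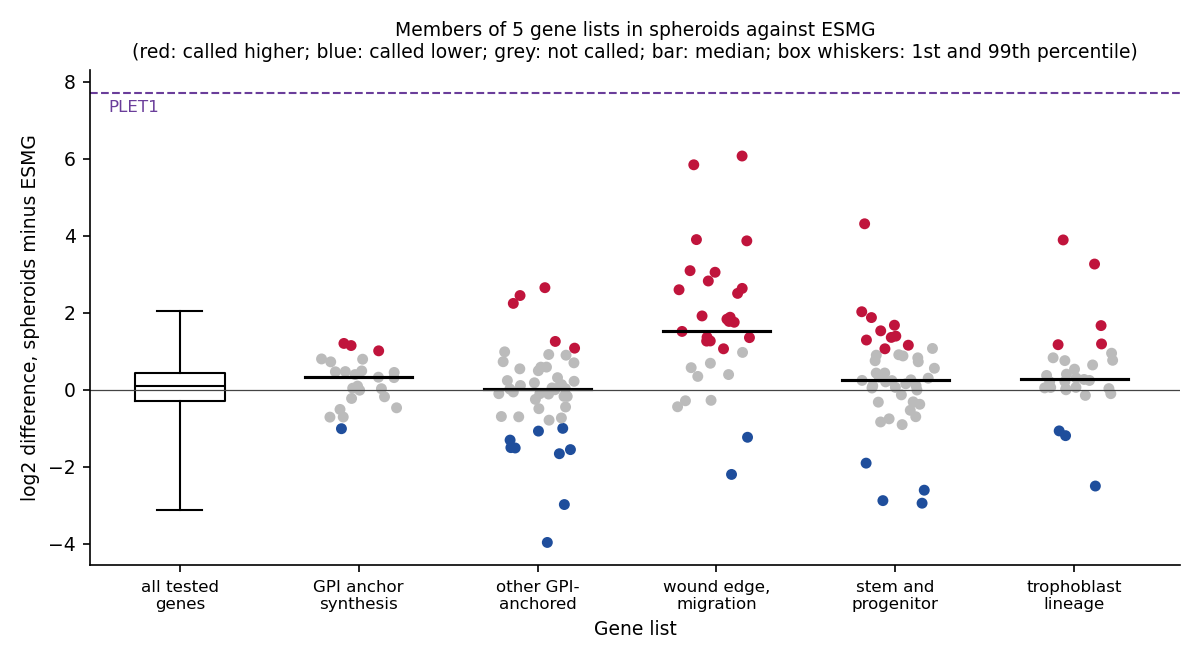
Log2 difference between spheroids and ESMG for each measured member of 5 gene lists (points; red called higher, blue called lower, grey not called; bar at the list median), beside all tested genes (box at quartiles, whiskers at the 1st and 99th percentiles). The dashed line marks PLET1 at 7.71, above every list member, and the wound edge and migration list has the highest median, 1.51.

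The chromosomal neighbours of PLET1 were read next. Their order was taken from the RefSeq gene table of Sscrofa11.1, and the 5 nearest measured protein-coding genes on each side were used. On one side, going away from PLET1, these were PTS, BCO2, IL18, SDHD and TIMM8B, and on the other NCAM1, TTC12, DRD2, TMPRSS5 and USP28. Of the 10, IL18 was higher in spheroids than in both tissues, NCAM1 was lower than in both, and the other 8 were not called. With 7.99% of all tested genes higher and 8.91% lower than in ESMG, 2 calls among 10 genes is near the background.

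IL18, a cytokine of the interleukin 1 family that epithelium stores in precursor form, was at 6.54, 6.06 and 6.41 in ESMG, at 5.95, 5.51 and 5.99 in squamous tissue and at 8.76, 9.37 and 9.72 in spheroids. It was 7.72-fold higher in spheroids than in ESMG (log2 difference 2.95, SE 0.24, limma adjusted p = 2.62e-06) and 11.1-fold higher than in squamous tissue, with no overlap of arrays. NCAM1, a neural and muscle adhesion molecule and the nearest gene on its side, was at 7.04, 7.16 and 7.71 in ESMG and at 5.77, 6.23 and 5.80 in spheroids, a fall of 1.37 on the log2 scale (difference -1.37, SE 0.19). The nearest gene on the other side, PTS, an enzyme of tetrahydrobiopterin synthesis, was 1.47-fold higher (log2 difference 0.55, SE 0.16, adjusted p = 0.0133) and so not called. The carotenoid oxygenase BCO2, which lies next to PTS, had one of -0.71. PTS and BCO2, the measured genes between IL18 and PLET1, were thus not called. IL18 is number 3 among measured but number 4 among all protein-coding genes on that side, so the stretch was not fully measured. No neighbour was called between ESMG and squamous tissue, where 2.65% of all tested genes were higher in ESMG and 0.409% lower.

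**Figure D5:**
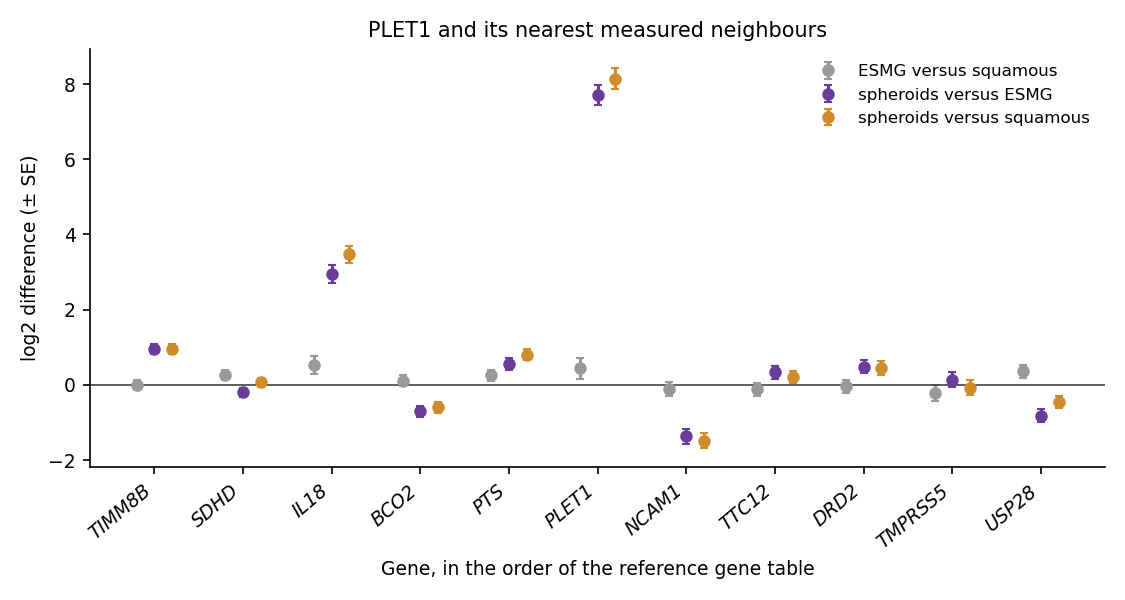
Log2 difference (point) with its SE (bar) of PLET1 and its 5 nearest measured neighbours on each side, in the order of the reference gene table, for ESMG versus squamous tissue, spheroids versus ESMG and spheroids versus squamous tissue, from a fit of 3 arrays per group. PLET1 stands at 7.71 and 8.14, IL18 at 2.95 and 3.47, and NCAM1 at -1.37 and -1.48, while the other neighbours lie within 1 log2 unit of 0.

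Likeness of pattern was measured as Pearson's r with PLET1 over the 9 arrays. The arrays fall into 2 sets, tissue and spheroids, so r mostly records that split, and it disregards the size of a difference. The 10 named genes with the highest r, 0.992 to 0.995, were TOE1, CLSTN1, LRRC8A, EEF2K, SH2D3A, ZCCHC14, TMCC3, MMP13, CDK9 and ASAP2. Their differences between spheroids and ESMG ran from 0.91 in CDK9, the kinase of transcription elongation, to 1.86 in LRRC8A, a subunit of the volume-regulated anion channel, apart from MMP13 with 5.84. MMP13, the eighth of the 10 by r, was the member of that set with the largest difference. The 3 genes with the most negative r, from -0.997 to -0.996, were the transcription factor MEF2C, KBTBD7 and the fibrinogen-like protein FGL2, with differences of -2.89, -2.44 and -4.70. Of 12216 other genes, 607 (4.97%) had an r over 0.95.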

How the data were processed

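The deposited values are log2 levels that the authors made by gene-level RMA with Expression Console of Affymetrix, per the labels. Transcriptome Analysis Console 3.0 is listed too, without a stated use, per the submitters' processing notes. No genome build is given in the sources used here. RMA equalises the arrays and compresses low signals, and nothing further was applied. Columns were matched by accession (0 unmatched), and groups and pigs were read from sample titles. Symbols came from the platform annotation, updated by gene number (12841 of 13157 probe sets with 1 symbol matched); the brightest probe set stood for each gene, PLET1 having 1.

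A group-means model over the 9 arrays was fitted to all 12217 genes with limma 3.58.1 in R 4.3.3 (statmod 1.5.0), leaving 6 residual degrees of freedom, with two-sided Benjamini-Hochberg adjustment. The fit was tested on simulated data. A call is an adjusted p under 0.05 with a fold of at least 2. Tables and plots used Python 3.11.15, pandas 2.3.3, numpy 2.4.6 and matplotlib 3.10.9. PLET1 and the lists were chosen with earlier results of these data known, and lists are described by counts and medians.

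Named genes were PLET1, the 4 next by rise, 5 neighbours per side, and the 10 highest and 3 most negative by correlation. The 2 largest calls per list, comparison and direction were also named, as were KRT5, KRT8, EPCAM, ELF5, LRIG1 and PLAUR. ESMG and squamous samples are paired by animal, from their titles. Same-pig deviations from group means correlated at 0.42, -0.15 and -0.17 over genes, and those of different pigs at -0.31 to 0.37. The pairing thus rests on the titles and not on these values. Alternatives tried were 3 other scalings, a filter on dim genes, all probe sets, array weights, each array left out, pig as a block, and fits of 6 arrays.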

Additional observations from a re-analysis of the deposited data

How the results depend on the processing

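PLET1 kept rank 1 by rise in spheroids under every setting that left out 1 array. With array weights its difference from squamous tissue was 8.49, and leaving out 1 array gave 7.97 to 8.34 against squamous tissue and 7.38 to 7.99 against ESMG. Between ESMG and squamous tissue PLET1 was called under none of 18 alternatives, the limma adjusted p running from 0.121 to 0.753. A fixed replicate block for pig over the 6 tissue arrays gave a difference of 0.44 (SE 0.24, adjusted p = 0.448), and with pig as a random block the adjusted p was 0.548. Called genes between the tissues numbered 276 to 569 with 1 array left out, and those lower in ESMG 24 to 122, or 120 with array weights. In that comparison, leaving out 1 array gave 1 to 2 called genes of anchor synthesis, 0 to 4 other GPI-anchored proteins (2 with cyclic loess), 1 to 4 wound-edge genes (6 with array weights, 3 with the fixed pig block) and 4 to 10 progenitor markers. Between spheroids and ESMG, called anchor synthesis genes numbered 1 with quantile normalization, 2 with cyclic loess, 2 with array weights and 1 to 4 with 1 array left out, and other GPI-anchored proteins 9 with the dimmest genes left out, where fewer genes are tested. Of 2741 differences of named genes under the alternatives, 2684 kept their call or lack of a call, 39 lost the call and 18 gained it. A change of sign was counted only where the difference was called in the main fit or the alternative, and 0 were found. The cause of the lost and gained calls was not tested. Depth is not defined for arrays, and signals of PLET1 in tissue lie under the lower quartile of genes, which limits its fold.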
